A study of Mus musculus with 27 samples.

Results

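Scavenger receptors are the cell-surface proteins with which macrophages bind and take up modified lipoproteins, bacteria, debris and cleared plasma proteins. The 7 genes described here are Marco and Msr1 (class A), Mrc1 (the mannose receptor), Stab1 (stabilin-1), Cd163 (the haemoglobin-haptoglobin receptor), Olr1 (the lectin-like oxidised low-density lipoprotein receptor LOX-1) and Scarb1 (the high-density lipoprotein receptor SR-BI). They were taken as a list of symbols and matched to Ensembl mouse gene identifiers, and all 7 were found among the 38124 genes of the count table. In build GRCm38 the gene bodies are those of ENSMUSG00000026390 (Marco, chr1:120474538-120505024), ENSMUSG00000025044 (Msr1, chr8:39581685-39642673), ENSMUSG00000026712 (Mrc1, chr2:14229392-14332057), ENSMUSG00000042286 (Stab1, chr14:31139013-31168641), ENSMUSG00000008845 (Cd163, chr6:124304656-124330527), ENSMUSG00000030162 (Olr1, chr6:129485244-129507165) and ENSMUSG00000037936 (Scarb1, chr5:125277087-125341094). Poly(A) RNA of alveolar macrophages from C57B/6 mice aged 8 to 14 weeks was sequenced as 27 libraries in 9 groups of 3. Recruited macrophages, sorted as CD11c-CD11b+, were taken 3, 6, 9 and 12 days after lipopolysaccharide (LPS), and resident macrophages, sorted as CD11c+CD11b-, were taken on the same days and from untreated mice on day 0. LPS, a bacterial cell wall component that inflames the lung, was instilled intratracheally. The labels give the dose as 20 ng in 50 µL of phosphate-buffered saline, and whether the unit is right was not checked. The labels do not say whether replicates came from separate animals or pools, so p-values measure the spread between these libraries, which may be technical.

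Alveolar macrophages live in the airspaces, where they clear inhaled particles, bacteria and surfactant lipid. After an inflammatory stimulus monocytes enter the airspaces and become macrophages beside the resident cells. Marco binds unopsonised particles and bacteria, Msr1 binds modified lipoproteins and bacterial lipid, the mannose receptor takes up glycoproteins with terminal mannose, stabilin-1 takes up acetylated low-density lipoprotein and the matrix protein SPARC, and Scarb1 moves cholesterol between cells and lipoproteins.

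Promoter sequences, from 250 bases before to 50 bases after the annotated start, were present for 5 of the 7 genes in the RefSeq table of mouse build GRCm38.p6 (Marco, Mrc1, Cd163, Stab1, Olr1), and not for Msr1 and Scarb1. Searched on both strands were GAGGAA, the core letters bound by the myeloid factor PU.1, TGANTCA, the site of AP-1, and TGCTGAC, part of the site of MAF factors. The 4 promoters with a match are shown because they belong to 3 of the genes that were lower in recruited cells on every day (Marco, Mrc1, Olr1) and to the gene that was highest above resident cells (Stab1). Each is written 5′ to 3′ on the gene's strand, with the matches in capitals (TTCCTC is GAGGAA read from the other strand).
Marco, chr1:120504975-120505274, minus strand: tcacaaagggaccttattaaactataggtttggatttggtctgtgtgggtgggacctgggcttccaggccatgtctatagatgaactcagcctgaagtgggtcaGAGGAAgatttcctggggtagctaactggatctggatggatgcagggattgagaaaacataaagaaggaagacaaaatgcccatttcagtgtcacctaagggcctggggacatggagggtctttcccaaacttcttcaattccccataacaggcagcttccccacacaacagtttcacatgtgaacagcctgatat
Mrc1, chr2:14229164-14229463, plus strand: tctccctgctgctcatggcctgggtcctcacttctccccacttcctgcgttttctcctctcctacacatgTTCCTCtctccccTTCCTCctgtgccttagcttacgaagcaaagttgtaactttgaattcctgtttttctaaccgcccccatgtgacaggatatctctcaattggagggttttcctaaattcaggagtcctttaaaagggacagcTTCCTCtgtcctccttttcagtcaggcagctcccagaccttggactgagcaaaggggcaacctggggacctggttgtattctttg
Olr1, chr6:129507116-129507415, minus strand: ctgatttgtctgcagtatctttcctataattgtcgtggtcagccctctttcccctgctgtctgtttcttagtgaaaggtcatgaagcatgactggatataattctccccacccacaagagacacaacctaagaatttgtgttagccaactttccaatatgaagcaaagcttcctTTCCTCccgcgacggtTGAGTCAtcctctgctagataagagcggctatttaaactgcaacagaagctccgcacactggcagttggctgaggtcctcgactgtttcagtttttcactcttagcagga
Stab1, chr14:31168592-31168891, minus strand: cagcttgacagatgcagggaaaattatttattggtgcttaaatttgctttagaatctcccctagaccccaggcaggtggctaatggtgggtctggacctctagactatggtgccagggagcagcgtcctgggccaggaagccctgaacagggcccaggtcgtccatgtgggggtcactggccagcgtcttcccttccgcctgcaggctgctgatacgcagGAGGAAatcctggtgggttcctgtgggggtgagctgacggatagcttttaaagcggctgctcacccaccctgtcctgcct
GAGGAA stood 3 times in the Mrc1 window, 1 time each in those of Marco, Stab1 and Olr1, and not in that of Cd163, while 28.3% of 32851 mouse promoters of the same length held it. The Olr1 window alone of these 5 held TGANTCA, which 7.81% of all promoters held, and none of the 5 held TGCTGAC, which 4.67% held. The letters were thus shared by genes that were higher and genes that were lower in recruited cells.

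Depth was 11093216 to 18299674 counts per library (median 14859352). In the 1000 most variable genes all 27 libraries lay nearest to a group of their own population, and 18 of them to their own group. Column headers of the table of unassigned reads carry running numbers whose meaning is not given, and the 4 libraries numbered 12, 13, 17 and 18 (day 9 replicate 2 and day 12 replicate 1 of both populations) stood apart from their groups at several of these genes. Levels are therefore given per library for the receptors that changed most. Tests of neighbours in the order of the 9 group means come from the fit of all 27 libraries only. The other receptor tests are given with and without these 4 where that changed a call, an alternative chosen after seeing the data. A second such alternative added the 4 runs into which the library numbers fall as a term of the fit, named the number run. Levels are CPM (counts scaled to a common library total) after trimmed-mean scaling. A gene was called changed at an adjusted p under 0.05 in edgeR's quasi-likelihood test, adjusted over all 13599 genes tested, which included all 7 receptors. An exact permutation test of 3 libraries against 3 cannot go below p = 0.1.

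Marco had 69.3, 26.5 and 36.5 CPM in the 3 recruited libraries of day 3, 14.4, 13.7 and 61.9 on day 6, 3.33, 57.3 and 77.1 on day 9, and 7.09, 44.6 and 31.3 on day 12. In resident cells it had 389, 397 and 358 CPM on day 0, 846, 1212 and 1679 on day 3, 242, 254 and 377 on day 6, 148, 1228 and 232 on day 9, and 274, 198 and 185 on day 12. The populations did not overlap on any day, and 1 resident library of day 9, replicate 2, reached the range of day 3 while the other two of its group lay below every day 0 library. Ordered by mean, resident day 3 was highest (1245 ± 417 CPM, SD, n = 3) and recruited day 12 lowest (27.7 ± 19), and no neighbours in the order of the 9 groups passed the test.

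Msr1 had 458, 535 and 693 CPM in recruited cells of day 3, 251, 226 and 375 on day 6, 159, 553 and 242 on day 9, and 446, 211 and 177 on day 12. Resident cells had 21.1, 16.5 and 16.0 CPM on day 0, 78.0, 57.1 and 84.7 on day 3, 69.6, 50.1 and 69.1 on day 6, 37.9, 153 and 37.3 on day 9, and 162, 50.4 and 47.8 on day 12. The populations were again apart on every day, and all 12 resident libraries taken after LPS lay above the 3 of day 0. The high libraries of days 9 and 12 were the 4 numbered 12 to 18, in both populations. In the order of the groups, recruited day 12 was called above its neighbour resident day 12 (log2 difference 1.68, adjusted p = 0.0309, edgeR; 27.3% of all genes tested differed between these groups), and no other neighbours were called.

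Mrc1 had 89.0, 28.9 and 26.1 CPM in recruited cells of day 3, 222, 288 and 364 on day 6, 285, 466 and 940 on day 9, and 605, 1031 and 951 on day 12. Resident cells had 1455, 2071 and 2055 CPM on day 0, 1523, 1840 and 1408 on day 3, 1685, 2262 and 1964 on day 6, 1757, 1824 and 2006 on day 9, and 1900, 2016 and 2116 on day 12. Recruited libraries of day 6 all lay above those of day 3, and even the highest recruited library lay below every resident library. Recruited day 6 over recruited day 3 were the only neighbours in the order called different (log2 difference 2.60, adjusted p = 5.57e-05, edgeR; 31.9% of all genes tested).

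Stab1 had 827, 782 and 907 CPM in recruited cells of day 3, 471, 306 and 731 on day 6, 123, 706 and 162 on day 9, and 217, 59.5 and 72.8 on day 12. Resident cells had 2.83, 0.689 and 0.377 CPM on day 0, 40.8, 16.4 and 36.2 on day 3, 8.69, 1.37 and 6.19 on day 6, 0.819, 3.78 and 1.16 on day 9, and 0.700, 0.441 and 0.559 on day 12. Every recruited library lay above every resident one, and the highest group mean was 1479 times the lowest, against 3.34 to 45 times for the other 6 genes. The lowest mean, that of resident day 12, rests on raw counts of 11, 6 and 10, so the size of this ratio is uncertain. Neighbours called different were recruited day 12 over resident day 3 (log2 difference 1.90, adjusted p = 0.036, edgeR; 38.9% of all genes tested) and resident day 3 over resident day 6 (2.53, adjusted p = 0.0188; 24.5%). Neither of these tests of neighbours was recomputed in an alternative. Of the 10288 exonic bases of Stab1, 112 overlap Nt5dc2 on the opposite strand, and the strand option of the counting is not stated. The other 6 genes share no exonic base with another gene. The recruited library of day 9 with 706 CPM and that of day 12 with 217 CPM are 2 of the 4 numbered 12 to 18, and C1qa, a complement subunit of tissue macrophages picked after its values were seen, was also highest there, with 1527 CPM against 155 and 227 in the other day 9 libraries and 1238 CPM against 89.1 and 100 in the other day 12 libraries.

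Olr1 had 115, 124 and 78.1 CPM in recruited cells of day 3, 93.9, 119 and 108 on day 6, 98.9, 106 and 193 on day 9, and 215, 280 and 228 on day 12. The 15 resident libraries lay between 272 and 539 CPM, with means of 345 on day 0, 296 on day 3, 408 on day 6, 406 on day 9 and 461 on day 12. Populations were apart on each day, and recruited libraries of day 12 lay above all other recruited libraries, but no neighbours in the order were called.

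Scarb1 was the steadiest of the 7. It had 60.2 to 126 CPM in the 12 recruited libraries, with day means of 84.8, 96.7, 100 and 98.8, and 191 to 432 CPM in the 15 resident libraries, with day means of 218, 223, 253, 283 and 257 from day 0 to day 12. Resident day 0 over recruited day 9 were the only neighbours called (log2 difference 1.13, adjusted p = 0.00196, edgeR; 38.8% of all genes tested), and they mark the step between the populations. The resident libraries above 300 CPM, with 432 and 329, are the 2 resident ones numbered 12 to 18.

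Cd163 was close to the limit of detection, with raw counts of 0 to 48 per library. The 3 recruited libraries had 0, 0.549 and 2.84 CPM on day 3, 0, 0.186 and 0.623 on day 6, 0.448, 1.5 and 3.59 on day 9, and 0.359, 1.26 and 0.610 on day 12. In resident cells the 15 libraries lay between 0.0644 and 1.60 CPM. The populations overlapped on every day and no neighbours in the order were called.

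**Figure D1:**
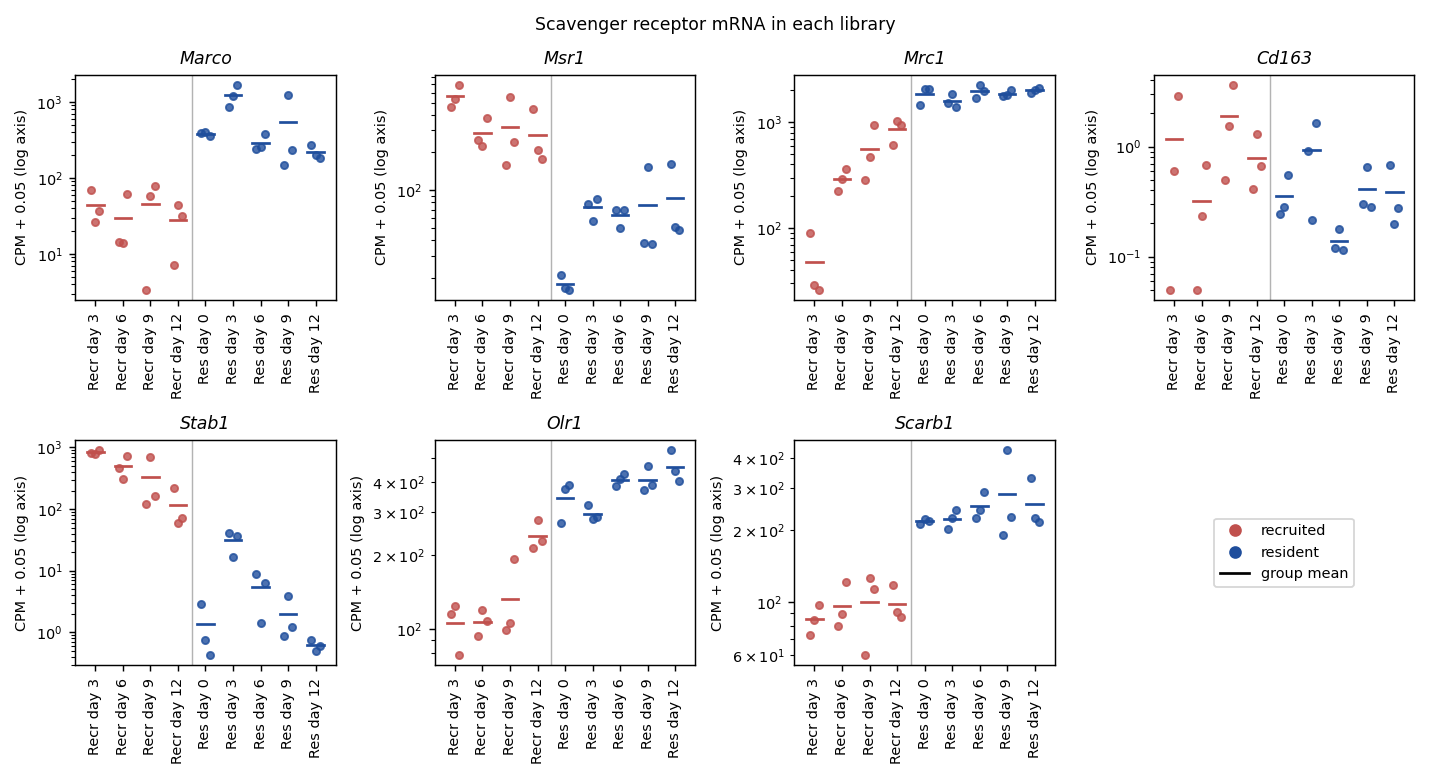
Level of each receptor in each of the 27 libraries (points, CPM + 0.05 on a log axis that differs between panels) with the group mean (line), recruited cells in red and resident cells in blue. Marco, Mrc1, Olr1 and Scarb1 sit lower in recruited cells and Msr1 and Stab1 higher, while Cd163 overlaps at under 4 CPM.

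Recruited cells differed from resident cells at 6 of the 7 receptors on every day. Stab1 and Msr1 were higher and Mrc1, Marco, Olr1 and Scarb1 lower. Over the mean of days 3 to 12 all 7 were called, 3 higher and 4 lower, where 60.3% of all 13599 genes tested were called (30.3% higher, 30% lower), so a call in this comparison is common. The median log2 change of the 7 was -1.42, against 0.02 over all genes tested. By day, 6 of 7 were called on each of days 3, 6, 9 and 12, 2 higher and 4 lower, against 46.6%, 35%, 32% and 27.3% of all genes tested. Of all genes 23.2%, 16.2%, 15.5% and 12.6% were called higher and 23.5%, 18.8%, 16.4% and 14.7% lower on these days. The libraries of these 6 did not overlap on any day. In bulk libraries a larger share of cells that express a gene and more RNA per cell cannot be told apart.

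Stab1 averaged 447 CPM over the recruited day means and 9.76 CPM over the resident ones, a log2 change of 6.59 ± 0.45 (SE, adjusted p = 9.92e-11, edgeR, as for all adjusted p-values below). By day the change was 4.75, 6.54, 7.44 and 7.65 on days 3, 6, 9 and 12. Resident means were only 1.92 CPM on day 9 and 0.567 CPM on day 12, so the sizes on these days are uncertain. Both population means were lower on day 12 than on day 3. On day 9 it was 8.37 without resident replicate 2 and 6.23 without recruited replicate 2, and on day 12 it was 6.85 without recruited replicate 1 and 7.02 without the 4 libraries numbered 12 to 18, still called in each case. Msr1 averaged 361 CPM in recruited and 74.7 CPM in resident cells, a change of 2.21 ± 0.29 (adjusted p = 1.18e-06), with 2.94, 2.18, 2.06 and 1.68 by day. On day 9 Msr1 was 3.09 without resident replicate 2 and 1.4 (adjusted p = 0.072) without recruited replicate 2, and on day 12 it was 2.53 without resident replicate 1 and between 1.18 and 1.41 (adjusted p 0.131 to 0.17) without recruited replicate 1, resident replicate 2 or resident replicate 3. With only the groups compared in the fit, Msr1 was called on neither day 9 (adjusted p = 0.0912) nor day 12 (0.11), and on day 12 the call was also lost with no filter on low counts (0.0665).

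Mrc1 averaged 441 CPM in recruited and 1858 CPM in resident cells, a log2 change of -2.69 ± 0.20 (adjusted p = 2.5e-10). The daily values of -5.05, -2.76, -1.72 and -1.22 shrank toward day 12. Day 3 was -5.85 without recruited replicate 1, day 9 was -2.31 without recruited replicate 3, and the call of day 12 (adjusted p = 0.0226) was lost without recruited replicate 1, resident replicate 2 or resident replicate 3 (adjusted p 0.0517 to 0.118), without the 4 libraries numbered 12 to 18 (-1.04, adjusted p = 0.182) and with no filter on low counts (0.0552). Marco averaged 36.9 CPM in recruited and 573 CPM in resident cells, a change of -3.65 ± 0.47 (adjusted p = 1.16e-06), with -4.82, -3.27, -3.55 and -2.97 by day. Here day 6 was -4.37 without recruited replicate 3, and day 9 was -4.16 without recruited replicate 3 and -2.04 (adjusted p = 0.0779) without resident replicate 2. The call of day 9 was also lost with only the groups compared in the fit (adjusted p = 0.0996). Without the 4 libraries numbered 12 to 18 Marco was not called on day 9 (-2.24, adjusted p = 0.0953) or day 12 (-2.31, adjusted p = 0.103), and the call of day 12 was also lost without resident replicate 1, recruited replicate 1 or recruited replicate 3 (adjusted p 0.0501 to 0.0866).

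Olr1 averaged 147 CPM in recruited and 393 CPM in resident cells, a log2 change of -1.49 ± 0.11 (adjusted p = 2.43e-11), and Scarb1 95.1 and 254 CPM, a change of -1.42 ± 0.13 (adjusted p = 6.32e-09). By day Olr1 changed by -1.48, -1.93, -1.61 and -0.93 and Scarb1 by -1.4, -1.39, -1.5 and -1.38. All of these were called. Cd163 averaged 0.997 CPM in recruited and 0.414 CPM in resident cells, a change of 1.33 ± 0.57 at adjusted p = 0.0491. Its call was lost in 24 of 37 alternatives (adjusted p 0.0511 to 0.304), including the pairing of libraries by day and number (0.0763). It was called on no single day, except on day 9 with the number run as a term (2.22, adjusted p = 0.0434, against 0.08 without that term).

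Within the 12 pairs of a recruited and a resident library with the same day and replicate number, Stab1 and Msr1 were higher in the recruited library in 12 of 12, and Marco, Mrc1, Olr1 and Scarb1 lower in 12 of 12. For these 6 genes the libraries did not overlap on any day, so any pairing within a day would give these counts, which are no further support. Cd163 was higher in 9 and lower in 3. The pair differences of log2 CPM ranged over 4.34 to 8.02 for Stab1 and 1.46 to 3.23 for Msr1, and over -5.99 to -0.97 for Mrc1 and -5.52 to -1.59 for Marco. The direction of the 6 genes other than Cd163 in each of the 4 runs of library numbers was fixed in the same way. Run medians were 5.74 to 7.76 for Stab1 and -4.83 to -2.60 for Marco.

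**Figure D2:**
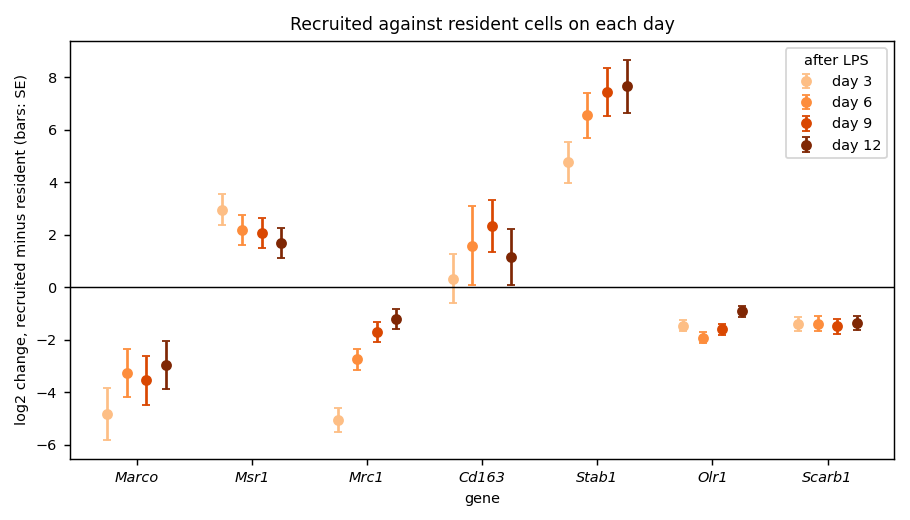
Log2 change of recruited over resident cells for each receptor on days 3, 6, 9 and 12 (points, light to dark; bars are SE from the edgeR fit). Scarb1 stays between -1.5 and -1.38, whereas Mrc1 runs between -5.05 on day 3 and -1.22 on day 12 and Stab1 between 4.75 and 7.65.

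Markers of other cells moved with this comparison, in which 60.3% of all genes tested were called. Of 9 monocyte markers 8 were higher in recruited cells and 1 lower over the mean of days. Of 9 tested neutrophil markers 4 were higher and 1 lower, with summed levels of 527 to 1090 CPM in recruited and 231 to 274 CPM in resident libraries of day 3. Of 9 tested T and natural killer cell markers 8 were higher, with sums of 54.1 to 101 CPM in recruited and 5.84 to 14.5 CPM in resident libraries of day 3. Single genes made up much of these sums in recruited cells of day 3, with Il7r at 76.6 CPM and Csf3r, of the neutrophil list, at 419 CPM. The defining genes Ly6g, Cd3d, Cd8a and Trac averaged 0.151, 0.846, 1.26 and 0.489 CPM there. Of 12 tested markers of resident alveolar macrophages 12 were lower in recruited cells over the mean of days, and of 13 tested markers of interstitial macrophages 12 were higher and 1 lower, with summed levels of 1243 to 1932 CPM in recruited and 403 to 518 CPM in resident libraries of day 3. The gate genes followed the sort, with Itgam (CD11b) at 3019 CPM in recruited and 398 CPM in resident cells on day 3, and Itgax (CD11c) at 218 and 1374 CPM. Stab1 is also made by sinusoidal and lymphatic endothelium. Of 10 endothelial and stromal markers 3 passed the count filter and all 3 were higher in recruited cells, with summed levels of 27.7 to 57.2 CPM in recruited and 1.66 to 4.85 CPM in resident libraries of day 3. Tek was at 0 counts in resident libraries of day 3 and averaged 0.0262 CPM in recruited ones. Also on day 3, Cdh5 averaged 0.963 CPM in recruited and 0.117 CPM in resident cells, and Lyve1 0.0262 and 0.214 CPM. Kdr, the endothelial VEGF receptor, was 2.1 CPM and Pecam1 1.52 CPM in recruited cells on day 12, when Stab1 was at 116 CPM, and 25.5 and 19.8 CPM on day 3, when Stab1 was at 839 CPM. The part of such cells in the differences was not tested.

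In resident cells Msr1 and Stab1 were higher on day 3 after LPS than on day 0. In the fit of all 27 libraries Mrc1, Olr1 and Scarb1 did not pass the test on any day. On day 3 against day 0, 2 of 7 were called, both higher, against 23.8% of all genes tested (13.3% higher). Stab1 was 31.1 ± 12.9 CPM on day 3 and 1.30 ± 1.33 CPM on day 0, a log2 change of 4.56 ± 0.88 (adjusted p = 0.000917, edgeR), which was 5.88 without day 0 replicate 1. Msr1 was 73.3 ± 14.4 CPM on day 3 and 17.9 ± 2.83 CPM on day 0, a change of 2.03 ± 0.58 (adjusted p = 0.0155), and this call was lost without day 0 replicate 2 or 3 or day 3 replicate 3 (log2 1.92 to 1.98, with adjusted p up to 0.0619). Marco was 1245 CPM on day 3 and 382 CPM on day 0 with no overlap of libraries, but its change of 1.71 ± 0.86 was not called (adjusted p = 0.16) except when only these groups were in the fit (0.00152).

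On days 6, 9 and 12 none of the 7 was called against day 0 in resident cells, against 6.42%, 3.49% and 1.3% of all genes tested. At an unadjusted p under 0.05 there were 2 on day 6 (Msr1, Stab1) and 1 each on days 9 and 12 (Msr1), and DESeq2 called 1, Msr1, on each of the 3 days. The Msr1 change was 1.81, 2.09 and 2.28 (adjusted p = 0.0679, 0.0523 and 0.0625), so its size was close to that of day 3. Without the 4 libraries numbered 12 to 18 it was 1.80, 1.07 and 1.44 and was called on each day (adjusted p = 6.06e-05, 0.0163 and 0.00395). Stab1 was 5.42 CPM on day 6, a change of 2.03 (adjusted p = 0.225; 1.99 and called at 0.0446 with the number run as a term). Tested over all 4 days together, 2 of 7 were called, against 26.1% of all genes tested: Stab1 (adjusted p = 0.000129) and Msr1 (0.0488, lost in 22 of 36 alternatives). The same test gave 0.95 for Mrc1, 0.734 for Scarb1, 0.131 for Olr1, 0.128 for Marco and 0.322 for Cd163. Marco was called without the 4 libraries numbered 12 to 18 (adjusted p = 0.0411), without resident day 9 replicate 2 (0.038) and with only the groups compared (0.0393). Olr1 was called with only the groups compared (0.018) and without recruited day 9 replicate 3 (0.0374).

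Markers of recruited cells were also higher in the resident libraries of day 3, where 23.8% of all genes tested were called. Of 9 monocyte markers 6 were called higher than on day 0, of 9 tested neutrophil markers 5, and of 9 tested T and natural killer cell markers 4. Summed levels were 21198 to 27787 CPM on day 3 and 10979 to 12350 CPM on day 0 for the monocyte list. They were 231 to 274 and 117 to 140 CPM for the neutrophil list, and 5.84 to 14.5 and 0.23 to 1.22 CPM for the T and natural killer cell list. Chil3, which is abundant in resident cells, made up most of the monocyte sum, with means of 22982 CPM on day 3 and 11764 CPM on day 0. It was lower in recruited cells of day 3 (2849 CPM), so that sum is no measure of recruited cells. On day 0 the defining genes Ly6g, Cd3d, Cd8a and Trac were at 0 counts, and on day 3 they averaged 0.0853, 0.236, 0.458 and 0.0891 CPM in resident cells. Ly6c2, a marker of inflammatory monocytes, was 50.1 CPM on day 3 and 0.0838 CPM on day 0 in resident cells, and its rise equalled 3.44% of its level in recruited cells of day 3. The rise of Stab1 equalled 3.56% of its recruited level, that of Msr1 9.86%, that of Itgam 12.9%, that of F13a1 1.69% and that of Kdr 4.36%. The part of recruited or other cells in the day 3 values of resident libraries was not tested.

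In recruited cells Mrc1 rose and Stab1 fell between day 3 and day 12, and Olr1 rose by day 12. Mrc1 was called higher than on day 3 on each later day, by log2 2.60 ± 0.41, 3.55 ± 0.43 and 4.16 ± 0.44 (adjusted p = 5.57e-05, 1.45e-06 and 1.86e-07). Without recruited day 3 replicate 1, the library with 89.0 CPM, these were 3.40, 4.36 and 4.97. It was the only member called on days 6 and 9, 1 of 7 on each, against 31.9% and 36.3% of all genes tested. On day 12, 3 of 7 were called, against 39.3%.

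Olr1 was 241 ± 34.6 CPM on day 12 and 106 ± 24.4 CPM on day 3 in recruited cells, a log2 change of 1.19 ± 0.21 (adjusted p = 9.15e-05). Stab1 was 116 ± 87.4 CPM on day 12 and 839 ± 63.2 CPM on day 3, a change of -2.85 ± 0.71 (adjusted p = 0.00318), which was -3.64 without day 12 replicate 1. Its changes on days 6 and 9, -0.74 and -1.34, were not called (adjusted p = 0.432 and 0.126). Without the 4 libraries numbered 12 to 18 the Stab1 change on day 9 was -2.54 and called (adjusted p = 0.00206), and without recruited day 9 replicate 2 alone it was called as well. Msr1 lay at -0.98, -0.82 and -1.02 against day 3 (adjusted p = 0.188, 0.258 and 0.154), and without the same 4 libraries at -0.97, -1.47 and -1.51, called on each day (adjusted p = 0.00167, 0.000141 and 1e-04). Tested over the later days together 3 of 7 were called, against 37.5% of all genes tested: Mrc1 (adjusted p = 1.26e-06), Olr1 (9.09e-05) and Stab1 (0.0188, lost without day 12 replicate 2 or 3 and with only the groups compared, adjusted p 0.0708 to 0.0737). The same test gave 0.839 for Marco, 0.856 for Scarb1, 0.32 for Msr1 and 0.201 for Cd163. Msr1 was called without the 4 libraries numbered 12 to 18 (adjusted p = 6.03e-05) and with the number run as a term (1.04e-05).

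Resident macrophage markers moved with Mrc1 in recruited cells: 5, 8 and 9 of 12 were called higher on days 6, 9 and 12 than on day 3, and none lower, where 31.9%, 36.3% and 39.3% of all genes tested were called. Their summed level was 4115 to 11049 CPM in recruited libraries of day 12 and 2684 to 3892 CPM in those of day 3, and 1 gene of the list, Chil3, alone averaged 5404 CPM on day 12 and 2849 CPM on day 3. Itgax, whose product is the CD11c of the sorting gate, was 1309 CPM on day 12 and 218 CPM on day 3 in recruited cells, and Siglecf, the resident cell lectin, 61.8 and 5.31 CPM. Of 9 monocyte markers 4, 4 and 6 were called lower on days 6, 9 and 12, with Ly6c2 at 25.5 CPM on day 12 and 1453 CPM on day 3. Their part in the Mrc1 and Stab1 values was not tested.

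The difference between the populations itself changed with time for Mrc1. Relative to day 3, its log2 difference between recruited and resident cells was 2.29 ± 0.55 higher on day 6, 3.32 ± 0.56 on day 9 and 3.83 ± 0.56 on day 12 (adjusted p = 0.0117, 0.000529 and 0.000151). It was the only member called in each case, 1 of 7, against 8.43%, 13.2% and 13.6% of all genes tested. Without recruited day 3 replicate 1 the values were 3.09, 4.13 and 4.63. For Stab1 the difference was 1.79, 2.69 and 2.90 higher, which was not called (adjusted p = 0.303, 0.0996 and 0.127). Where libraries were paired by day and number it was 1.82, 2.52 and 2.76 and called on each day (adjusted p = 0.0248, 0.00711 and 0.0125). With the number run as a term it was called on days 9 and 12 (0.0127 and 0.0199), and with only the groups compared on day 12 (0.0485). For Msr1 the value on day 12 was -1.26 (adjusted p = 0.312), with the pairing -1.14 and called (adjusted p = 0.00673), and with the number run -1.11 and called (0.0124). Over the 3 later days together 1 of 7 was called, Mrc1 (adjusted p = 0.00048), against 10.7% of all genes tested, and with the pairing 3 were (Mrc1, Stab1 at 0.0133, Msr1 at 0.0307). Without pairing this test gave 0.12 for Olr1 (0.0131 without recruited day 9 replicate 3), 0.235 for Stab1 (0.022 with the number run), 0.73 for Msr1, 0.737 for Marco, 0.791 for Cd163 and 0.995 for Scarb1.

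Recruited cells of day 12 still differed from resident cells of untreated mice. Of the 7 genes 5 were called, 2 higher and 3 lower, against 31% of all genes tested (15.5% in each direction). Stab1, at 116 CPM against 1.30 CPM, differed by log2 6.46 ± 0.92 (adjusted p = 1.89e-05), which was 7.78 without day 0 replicate 1, 5.63 without day 12 replicate 1 and 5.64 without the 4 libraries numbered 12 to 18. Msr1, at 278 against 17.9 CPM, differed by 3.96 ± 0.62 (adjusted p = 5.73e-05), and Marco, at 27.7 against 382 CPM, by -3.78 ± 0.94 (adjusted p = 0.00431). Scarb1, at 98.8 against 218 CPM, differed by -1.14 ± 0.27 (adjusted p = 0.00219). Mrc1, at 862 against 1860 CPM, differed by -1.11 ± 0.39 (adjusted p = 0.0333), a call that was lost in 7 of 36 alternatives. These were day 0 without replicate 2 or 3 and day 12 without replicate 1 or 3 (adjusted p 0.0607 to 0.138), no filter on low counts (0.0785), the number run as a term (0.056), and leaving out the 4 libraries numbered 12 to 18 (-0.91, adjusted p = 0.182). Olr1, at 241 against 345 CPM, was not called (-0.52 ± 0.21, adjusted p = 0.062, called in 7 of 36 alternatives), and neither was Cd163 (1.25 ± 1.08, adjusted p = 0.422).

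Per kilobase of exon, which allows levels of different genes to be compared, the leading receptor differed between populations and days. In recruited cells Msr1 and Stab1 made up 36.8% and 33.9% of the summed CPM per kb of the 7 genes on day 3, and Mrc1 3.13%. Mrc1 then made up 23.6%, 36.5% and 47.3% on days 6, 9 and 12, while Stab1 made up 24.4%, 12.6% and 4.13%. In resident cells Mrc1 led on average with 47.2%, 50.3%, 45.6% and 52.7% on days 0, 6, 9 and 12. On day 9 its share ran from 25.4% to 56.9% over the 3 libraries and that of Marco from 15.8% to 56.5%, and Marco led in replicate 2. On day 3 Marco led there with 62.3% (54.4% to 71.5% over the 3 libraries) and Mrc1 held 25.2%. Summed CPM of the 7 genes was 1684 ± 137, 1312 ± 391, 1492 ± 676 and 1625 ± 87.1 in recruited cells of days 3 to 12, and 2824 ± 408, 3460 ± 393, 2991 ± 329, 3166 ± 834 and 3035 ± 149 in resident cells of days 0 to 12.

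**Figure D3:**
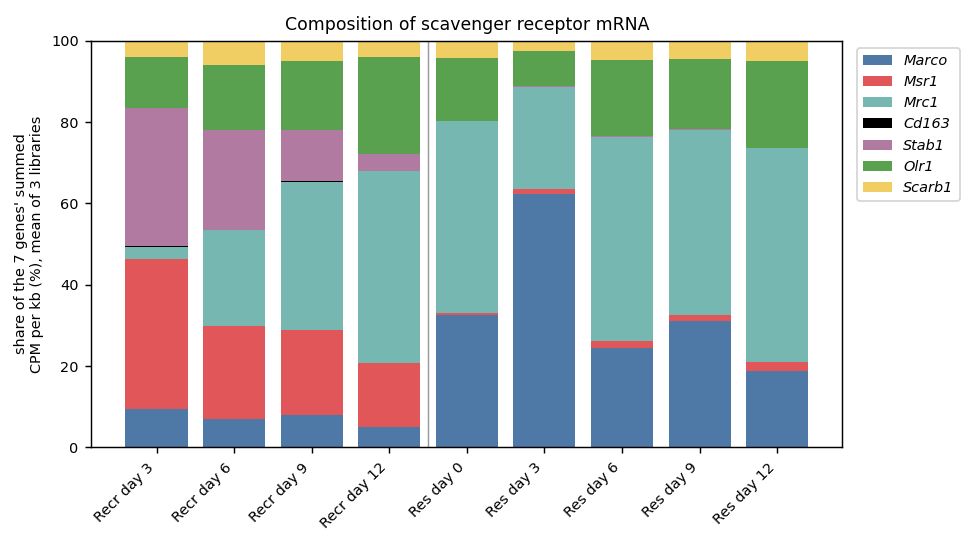
Share of each receptor in the summed CPM per kb of the 7 genes (stacked bars, percent, mean of the shares of 3 libraries). In recruited cells the Stab1 and Msr1 segments shrink between day 3 and day 12 as that of Mrc1 reaches 47.3%, and in resident cells the Marco segment is widest on day 3.

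A ratio of 2 genes within a library does not depend on the scaling of that library. Stab1 over Mrc1, per kb, was 5.75, 16.8 and 21.5 in recruited cells of day 3, 1.31, 0.659 and 1.24 on day 6, 0.267, 0.939 and 0.107 on day 9, and 0.222, 0.0357 and 0.0474 on day 12. The libraries of day 3 stood above all later ones, and the highest ratios of days 9 and 12 were in libraries numbered 12 to 18. In all 15 resident libraries the ratio was at most 0.0166, with its highest median on day 3. Msr1 over Marco was 0.951 to 19.1 in recruited libraries and 0.0126 to 0.179 in resident ones. Each ratio set a gene that was higher in recruited cells over one that was lower. Both ratios separated the populations in every library, which follows from the levels given above and is no further support.

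**Figure D4:**
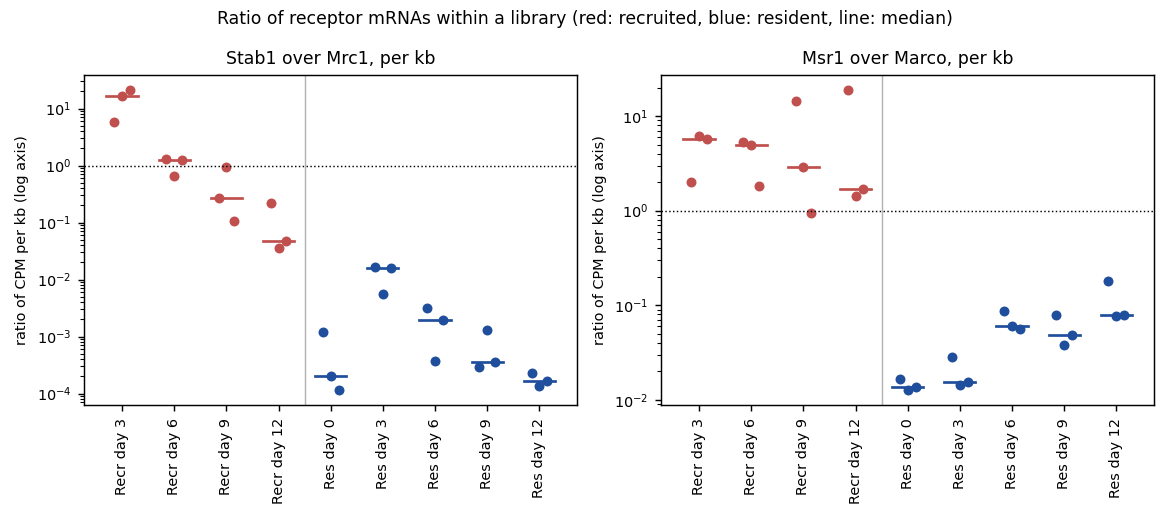
Ratio of CPM per kb of Stab1 over Mrc1 (left) and Msr1 over Marco (right) in each library (points, log axis; lines are group medians; dotted line at 1). The Stab1 to Mrc1 median is lower on each later day in recruited cells, while Msr1 over Marco stays above the resident range in all 12 recruited libraries.

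The genes most like a receptor were ranked by Pearson's r of log2 CPM over the 27 libraries among 7893 other genes that reached 20 CPM in a group. These values share libraries and depth, and the step between the populations enters each of them, so they are descriptions. Stab1 was most like Adam8, a membrane protease (r = 0.985), Itgam (0.981) and Htra1, a secreted protease (0.978). Msr1 was most like Pdpn (podoplanin, 0.977), Fgd6 (0.976) and Ifitm2 (0.976), and among the genes most like Mrc1 were Slco2b1 (0.976) and Ltc4s, the leukotriene C4 synthase (0.976). For Stab1 and Adam8 the value stayed high within each population, 0.977 over 12 recruited and 0.923 over 15 resident libraries. Marco was most like Bub1b, a mitotic checkpoint kinase (0.954, with 0.851 in recruited and 0.780 in resident libraries), Gins2, a replication protein (0.928), and Eci2 (0.927). Olr1 was most like Snn (0.963), Nln (0.957) and Vkorc1l1 (0.957), and Scarb1 like Emc2 (0.957), Mctp2 (0.954) and Lpcat3 (0.954).

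Among the 7 themselves the pair that moved together most over 27 libraries was Msr1 and Stab1 (r = 0.88), and the pair most opposed was Stab1 and Olr1 (-0.90). Within the 12 recruited libraries Msr1 and Stab1 had r = 0.82, Mrc1 and Olr1 0.69, and Stab1 and Mrc1 -0.74. In the 15 resident libraries the highest value was that of Marco and Stab1, 0.75, which were both highest on day 3. Deviations from the group means over the 27 libraries, which leave out the step between groups, gave 0.86 for Msr1 and Scarb1 and 0.75 for Msr1 and Stab1. In both populations Msr1, Scarb1 and Stab1 were each highest of their group in day 9 replicate 2 and day 12 replicate 1. In resident day 9 replicate 2, Msr1 had 153 CPM against 37.9 and 37.3, and Scarb1 432 CPM against 191 and 228. How far these r values rest on such libraries was not tested.

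The wider family showed no common direction between the populations. Of 28 other scavenger receptors listed 19 passed the count filter, and 14 were called over the mean of days 3 to 12, 8 higher and 6 lower in recruited cells, where 60.3% of all genes tested were called, with a median log2 change of -0.02 against 0.02 over all genes tested. Cxcl16, the membrane chemokine that also binds oxidised lipoprotein, was 368 CPM in recruited and 45.1 CPM in resident cells (3.04 ± 0.26, adjusted p = 2.89e-09), and Scarf1, a class F scavenger receptor, 34.5 and 7.69 CPM (2.09 ± 0.12, adjusted p = 6.51e-13). Colec12, a class A relative of Marco and Msr1, was 13.8 CPM in recruited and 107 CPM in resident cells (-3.17 ± 0.34, adjusted p = 8.48e-08), and Clec1a 0.981 and 3.66 CPM (-2.37 ± 0.18, adjusted p = 1.12e-10). Class A receptors therefore lay on both sides, with Msr1 higher and Marco and Colec12 lower. On days 3, 6, 9 and 12, 9, 10, 9 and 9 of the 19 were called, against 46.6%, 35%, 32% and 27.3% of all genes tested.

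**Figure D5:**
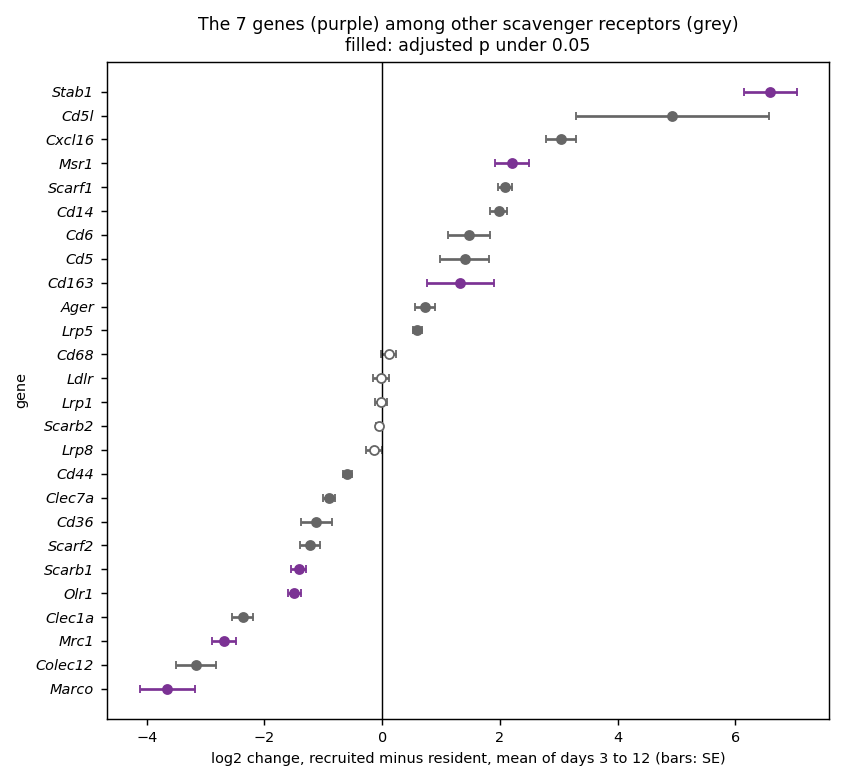
Log2 change of recruited over resident cells, mean of days 3 to 12, for the 7 receptors (purple) and the 19 other scavenger receptors tested (grey), with SE bars from the edgeR fit and filled points where adjusted p is under 0.05. Stab1 lies at the upper end and Marco at the lower end of the 26 genes.

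In resident cells 4 of the 19 wider receptors were called on day 3 against day 0, 2 higher and 2 lower, which is no larger a share than the 23.8% of all genes tested. Cxcl16 was 84.0 CPM on day 3 and 7.58 CPM on day 0 (log2 3.47 ± 0.55, adjusted p = 0.000142) and Cd14, the LPS co-receptor, 190 and 66.8 CPM (1.51 ± 0.29, adjusted p = 0.000583). On day 6, 5 were called, against 6.42% of all genes tested, among them Cd36, the class B fatty acid receptor, at 82.5 CPM against 379 CPM (-2.20 ± 0.53, adjusted p = 0.0149). On days 9 and 12 none was called by edgeR, with 8 and 6 at an unadjusted p under 0.05 and 2 and 0 called by DESeq2. In recruited cells 8, 11 and 13 of 19 were called on days 6, 9 and 12 against day 3, where 31.9%, 36.3% and 39.3% of all genes tested were called, and on day 12 10 were higher and 3 lower. Colec12 was 17.9 CPM on day 12 and 3.13 CPM on day 3 (2.48 ± 0.73, adjusted p = 0.0104), Cd36 109 and 30.6 CPM (1.83 ± 0.53, adjusted p = 0.00913), and Cd14 302 and 1270 CPM (-2.07 ± 0.29, adjusted p = 6.43e-06).

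Of 17 listed cargo proteins and partners 13 were tested and 8 called between the populations over the mean of days, 5 higher and 3 lower, a share close to the 60.3% of all genes tested. Apoe, the lipoprotein ligand, was 9390 CPM in recruited and 90.3 CPM in resident cells (log2 6.37 ± 0.34, adjusted p = 1.52e-12), and Lpl, lipoprotein lipase, 625 and 3270 CPM (-2.56 ± 0.21, adjusted p = 9.57e-10). Hp, the haptoglobin that Cd163 clears with haemoglobin, was 739 CPM in resident cells on day 3 and 4.10 CPM on day 0 (7.49 ± 1.45, adjusted p = 0.000939), and the iron exporter Slc40a1 4.10 and 45.2 CPM (-3.47 ± 0.48, adjusted p = 3.02e-05). Sparc, a ligand of stabilin-1, was 1.11 ± 0.853 CPM (SD) on day 12 and 0.0243 ± 0.042 CPM on day 3 in recruited cells (5.06 ± 1.26, adjusted p = 0.00267). These levels are close to the limit of detection, so the size of this change is uncertain.

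Of 11 genes of cholesterol handling 9 were called over the mean of days, 4 higher and 5 lower, against 60.3% of all genes tested. Abcg1, which exports cholesterol to high-density lipoprotein as Scarb1 can, was 844 CPM in recruited and 2460 CPM in resident cells (-1.58 ± 0.13, adjusted p = 1.8e-10), while the exporter Abca1 was higher in recruited cells of day 3, 853 against 157 CPM (2.44 ± 0.49, adjusted p = 0.000391). Of 12 listed transcription factors 10 were called, 5 in each direction, against the same 60.3%. Maf was 83.5 CPM in recruited and 2.02 CPM in resident cells (5.27 ± 0.33, adjusted p = 2.65e-11), and Pparg, the factor of lipid-handling alveolar macrophages, 57.2 and 170 CPM (-1.80 ± 0.16, adjusted p = 4.97e-09). In recruited cells Pparg was 96.6 CPM on day 12 and 18.4 CPM on day 3 (2.4 ± 0.34, adjusted p = 1e-05, edgeR). Maf was 40.4 ± 41 CPM (SD) on day 12 and 145 ± 35.5 CPM on day 3 (-1.85 ± 0.53, adjusted p = 0.00833).

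Mrc1 and Arg1 are both used as markers of alternative activation, and they lay on opposite sides. Of 14 listed genes of that state 11 were tested and 10 called over the mean of days, 6 higher and 4 lower in recruited cells, against 60.3% of all genes tested. Arg1, arginase 1, was 503 CPM in recruited and 9.50 CPM in resident cells (5.67 ± 0.73, adjusted p = 1.23e-06), and Chil3, a chitinase-like lectin, 3530 and 21300 CPM (-2.66 ± 0.24, adjusted p = 2.96e-09). Between day 3 and day 12 in recruited cells Arg1 fell to 75.9 ± 106 CPM (SD), against 1180 ± 863 CPM on day 3, while Mrc1 rose. The log2 change of Arg1 was -3.97 ± 1.31 (SE, adjusted p = 0.0208, edgeR). Its SD on day 12 exceeded its mean, so the size of this fall is uncertain.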

How the data were processed

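The deposited table holds raw read counts per Ensembl gene, not normalized by the authors. The submitters' processing notes name STAR 2.4.0a, HTSeq 0.6.0, DESeq2 1.4.5 and R 3.1.0, without roles, and build mm10; the strand option and annotation are not stated there. Reads not assigned to a gene stayed out of library sizes. Symbols and exon lengths came from GENCODE M21 and promoters from RefSeq. In edgeR 4.0.16 (R 4.3.3), filterByExpr (minimum count 10, total 15) kept 13599 genes. TMM scaling, 1 mean per group over 27 libraries (18 residual degrees of freedom), robust quasi-likelihood F tests and Benjamini-Hochberg adjustment followed, tested on simulated counts. Log2 CPM used a prior count of 2. Recruited and resident libraries of a day with the same replicate number deviated together. Their deviations from group means correlated at 0.17 to 0.52 in 12 pairs, each library best with its own number. Such pairs also lay in the same run of library numbers, so pairing and run cannot be told apart. From each wider list up to 4 genes per comparison were eligible to be named, by largest change among those called with libraries apart. Marker genes given as examples were picked after their values were seen. Values of single genes of the wider lists are given from the fit of all 27 libraries, without alternatives. Some genes that this rule or the likeness ranking would name are not reported here. Members and lists were chosen with earlier results of these data known.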

Additional observations from a re-analysis of the deposited data

Results flagged for a closer look

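For Mrc1, the mannose receptor, the test of the difference between the populations over time passed the threshold (edgeR, adjusted over all genes tested). Relative to day 3, the log2 difference between recruited and resident cells was 2.29 higher on day 6, 3.32 higher on day 9 and 3.83 higher on day 12, and over the 3 later days together the adjusted p was 0.00048. The level moved in recruited cells, which averaged 862 CPM on day 12 and 48 CPM on day 3, beside 2011 CPM and 1590 CPM in resident cells. Without recruited day 3 replicate 1 the values were 3.09, 4.13 and 4.63.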

How the results depend on the processing

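For 83 receptor tests printed in the text, 3031 values were recomputed in 37 alternatives. Of these, 2893 kept their direction and side of the threshold, 78 lost a call, 60 gained one and 0 reversed. Left out of these counts is Cd163 on day 9, whose gained call is given above. Neighbours in the order of group means that were no other comparison, such as those called for Stab1 and Scarb1, were not recomputed. The 0 reversals cover a selection made after the values were seen. Of 50 further receptor changes, which apart from Cd163 on day 9 the text does not print, 27 changed sign in at least 1 alternative (76 of 1808 recomputed values). None of those that changed sign was called in either fit. Among these, Cd163 in recruited over resident cells was plotted, and it turned to between -1.75 and -0.05 on day 3 in 3 alternatives and to -0.08 on day 6 in 1. The number run as a term and leaving out the 4 libraries numbered 12 to 18 were chosen after seeing the data. Calls among the 7 receptors changed most in comparisons with resident day 0. On day 6 (0 called) there was 1 with only the groups compared, without the 4 libraries numbered 12 to 18 and by DESeq2, and 2 with the number run as a term. On day 9 (0) there was 1 with library size alone, 1 CPM in 3 libraries, the number run, without the 4 libraries and by DESeq2. On day 12 (0) there was 1 with library size alone, only the groups compared, the number run, without the 4 libraries and by DESeq2. The member called on day 12 with only the groups compared was not Msr1, which was the member called in the other settings of that day. Over any day (2) there was 1 with RLE, no count filter or the replicate number as a block. In recruited cells against day 3, day 6 (1) gave 2 with only the groups compared, the number run or without the 4 libraries, and day 9 (1) gave 3 with the last pair of settings. For the change of the population difference, pairing by day and number (the replicate block) gave 2, 2, 3 and 3 members on days 6, 9, 12 and any day (1 each), the number run 2, 3 and 2 on days 9, 12 and any day, and only the groups compared 2 on day 12. The pairing changed no call of a member in the other comparisons between the populations except Cd163 over the mean of days.

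Genes called with only the groups compared were 2497 for recruited against resident cells on day 9 (4350 with all libraries), 1446 and 122 for resident days 6 and 9 (873, 474), 2772 and 3358 for recruited day 9 and any later day (4933, 5105), and 947 for the change to day 9 (1793). The number run gave 1586, 1076 and 379 for resident days 6, 9 and 12 (177 on day 12), and 2062, 2802, 2819 and 2483 for the change on days 6, 9, 12 and any day (1147, 1793, 1853, 1449), where the pairing gave 2198, 2912, 2955 and 2459. Without the 4 libraries there were 1423 for resident day 6, and 1828 and 2222 for the change on day 6 and any day. DESeq2 gave 813 and 398 for resident days 9 and 12.

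Leaving out 1 library gave 3 to 6 members for recruited against resident cells on day 12 (3 without recruited replicate 1), 1 to 2 for resident day 3, 0 to 1 for resident days 6, 9 and 12, 1 to 3 for any day, 1 to 2 for recruited day 9, and 1 to 2 for the change on any day. Genes called ran over 1895 to 3511, 450 to 1029, 167 to 591, 75 to 222 and 2106 to 3866 for resident days 3, 6, 9, 12 and any day, and 897 to 1679 for the change on any day. The cause was not tested for any of these. Library size alone moved the median of all genes by -0.12 (log2) for recruited against resident cells on day 3 and by 0.12 to 0.15 for the change over time, and RLE by at most 0.02. Depth limits Cd163, at 0 to 48 counts per library, where counting error alone is large. It also limits Stab1 in resident cells, with 44, 9 and 6 counts on day 0 and 11, 6 and 10 on day 12.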
